A study of Mus musculus with 17 samples.

Results

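The genes described here make cholesterol and fatty acids or control that supply, in quiescent NIH 3T3 cells given the growth factor PDGF and kinase inhibitors. The list holds 33 genes, ordered by pathway step as a mevalonate branch (7 genes), a sterol branch (11), an uptake and control branch (6) and a fatty acid branch (9). A probe set, the group of short probes that reports on 1 transcript, was taken where its annotation named exactly 1 of these genes. That gave 62 probe sets of 31 genes among 22626 on the array design of the 8-array table, and 36 probe sets of 24 genes among 12422 on that of the 9-array table. All 31 genes of the first and 23 of the second passed the filter on low values. Insig1 did not pass, and it lay between 3 and 48 signal units on the 9 arrays. Acat2 and Insig1 had no such probe set in the 8-array table. Acat2, Pmvk, Insig2, Stard4, Srebf2, Scap, Aacs, Acaca and Fads2 had none in the 9-array table.

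NIH 3T3 cells are fibroblasts established from mouse embryos. Their RNA was measured on 17 arrays, 1 array per condition in each of 3 experiments. The Src experiment (8 arrays) had cells treated with vehicle, 2 µM SU6656, 7.5 µM LY294002 or 10 µM UO126, each without PDGF and with 25 ng/ml PDGF for 1 h. The MEK experiment (6 arrays) had untreated cells and cells given 10 µM UO126 or 7.5 µM PD98059, each without and with 25 ng/ml PDGF, whose time is not given in the sources used here. A repeat of the Src experiment (3 arrays, in the same table as the MEK experiment) had vehicle, PDGF for 1 h, and PDGF with SU6656 at the same doses. SU6656 inhibits Src family kinases, LY294002 inhibits PI3K, and UO126 and PD98059 inhibit MEK. All cells were quiescent, and the labels do not say whether arrays came from separate cultures, how long inhibitors were given or what the vehicle was. P-values here therefore measure only the spread between arrays, which may be technical. As no condition was repeated within an experiment, that spread also holds any difference in PDGF response between inhibitor backgrounds or experiments. For MEK inhibition it also holds any difference between UO126 and PD98059.

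Cells build cholesterol from acetyl-CoA through mevalonate and squalene, and fatty acids from the same precursor through malonyl-CoA. Transcription of both sets of enzymes is driven by SREBP proteins, the products of Srebf1 and Srebf2, which Scap escorts from the endoplasmic reticulum and Insig proteins retain there when sterols are plentiful. Activated SREBP binds sterol regulatory elements in promoters, usually beside sites for NF-Y (CCAAT boxes) and Sp1 (GC boxes).

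The promoters of the genes with the largest response to PDGF in the mevalonate, sterol and fatty acid branches are shown because the results below turn on these genes; Stard4, the only gene of the uptake and control branch past the threshold, had no entry. Each is the 250 bases before the RefSeq transcript start (GRCm38.p6), 5′ to 3′ on the gene's strand. Hmgcs1 lies at chr13:119690101-119690350 on the plus strand, Msmo1 at chr8:64733579-64733828 on the minus strand and Aacs at chr5:125475623-125475872 on the plus strand. Capitals mark a sterol regulatory element (TCACNCCAC), CCAAT boxes (CCAAT) and GC boxes (GGGCGG), each searched on both strands together with the E-box CACGTG.
Hmgcs1: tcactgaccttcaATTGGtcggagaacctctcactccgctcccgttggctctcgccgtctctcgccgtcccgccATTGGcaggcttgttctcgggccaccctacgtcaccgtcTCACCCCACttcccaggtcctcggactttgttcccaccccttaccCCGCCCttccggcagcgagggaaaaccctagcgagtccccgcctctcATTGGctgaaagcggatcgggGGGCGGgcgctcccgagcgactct
Msmo1: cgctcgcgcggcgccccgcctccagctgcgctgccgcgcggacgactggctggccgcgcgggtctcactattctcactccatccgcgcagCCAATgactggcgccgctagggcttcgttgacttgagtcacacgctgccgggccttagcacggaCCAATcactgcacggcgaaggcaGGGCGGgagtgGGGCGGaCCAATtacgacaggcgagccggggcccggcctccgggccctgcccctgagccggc
Aacs: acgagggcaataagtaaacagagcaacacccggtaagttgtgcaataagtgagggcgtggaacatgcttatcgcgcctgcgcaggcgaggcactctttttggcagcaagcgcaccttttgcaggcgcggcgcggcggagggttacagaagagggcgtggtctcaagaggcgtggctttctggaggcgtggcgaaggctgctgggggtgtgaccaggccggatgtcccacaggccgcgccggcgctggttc
In the Hmgcs1 promoter the sterol regulatory element lay 137 to 129 bases before the start, with CCAAT boxes on the opposite strand at 237, 176 and 45 bases and GC boxes at 92 and 24 bases. The Msmo1 promoter held CCAAT boxes at 160, 96 and 55 bases and GC boxes at 73 and 62 bases before its start. The Aacs window held none of the 4 motifs. RefSeq promoters were matched for 26 of the 33 genes. A CCAAT box was in 19 of these 26 and in 37.5% of all 27025 genes with a promoter, a GC box in 21 and in 35.4%, the E-box in 5 and in 6.86%, and the sterol regulatory element in 1 and in 1.22%. These are letter matches in a short window and say nothing about binding.

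Fibroblast markers passed the filter, and most markers of fat cells did not. All 12 fibroblast markers passed in both tables. Their intensities summed to 226536 to 264564 per array of the Src experiment and to 81776 to 154685 on the remaining 9 arrays. Vim passed in the 9-array table at only 29.9 to 82.5 signal units, where it read 22975.3 to 27948.4 in the 8-array table. Of 6 macrophage and leukocyte markers 4 passed in both tables, with Cd14 at up to 1568.9 in the 9-array table. Of 7 epithelial and hepatocyte markers 2 passed in the 8-array table and 4 in the 9-array table, there with Cdh1 at 259.2 to 417.7. Of 8 adipocyte markers, 6 were on the arrays, of which 2 passed in the 8-array table and 1 in the 9-array table, and Adipoq, Fabp4, Cidec and Pparg were below the filter in both. The summed adipocyte intensity was 1339 to 2133 and 549.5 to 1125. Most of this sum was Lpl, which alone read 1095.3 to 1791.7 and 494 to 1068.6. The untreated array of the MEK experiment stood apart, with Gapdh signal at the 3′ end 1.13 times that at the 5′ end, where the other 16 arrays had 0.739 to 0.907. Array medians were 134.1 to 198.4 signal units, and the number of arrays limits the precision. In RNA from whole cultures, fewer cells of a type and less RNA per cell cannot be told apart.

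PDGF raised Hmgcs1, Pmvk and Idi1 of the mevalonate branch, 6 genes of the sterol branch, Stard4, Aacs and Fasn in the Src experiment. Intensities are linear signal units, ratios are log2 of quantile normalised intensity plus 36.2 units (21.1 in the 9-array table), and a gene is counted at its brightest probe set. The PDGF effect was fitted with limma over 4 pairs of arrays that share an inhibitor, and a gene was called at a Benjamini-Hochberg adjusted p under 0.05 over all probe sets. Of 31 members, 12 rose and 0 fell, where 2.47% of all 9222 genes rose and 0.824% fell. The median log2 was 0.13 over the members and −0.05 over all genes. By direction alone, 16 of 31 members were higher with PDGF in all 4 pairs, against 9.21% of all genes, and 0 were lower in all 4, against 16.3%.

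In the mevalonate branch 3 of 6 genes rose, with a branch median of 0.42. Hmgcs1, the cytosolic synthase that makes HMG-CoA, read 11425, 3175, 6876 and 12855 on the arrays with vehicle, SU6656, LY294002 and UO126, and 20098, 8715, 14443 and 19116 with PDGF added, in the same order. Each PDGF array was above its partner, although the SU6656 array with PDGF stayed below the vehicle array without it, so the groups without and with PDGF overlapped. The PDGF effect was 1.96-fold (log2 0.97, SE 0.109, adjusted p = 0.000915).

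Pmvk, phosphomevalonate kinase, went from 470.3, 280.3, 327 and 424 to 995, 479, 534 and 814 in that order of arrays. Every PDGF array was above every array without PDGF, and the vehicle pair had the largest step. The effect was log2 0.84, SE 0.108, adjusted p = 0.00208. Idi1, the isomerase that interconverts the isoprene units, read 3037, 1563, 1828 and 3091 without PDGF and 5339.7, 2134, 3740.4 and 4287 with it. Here the SU6656 array with PDGF remained below the vehicle and UO126 arrays without PDGF. The effect was log2 0.65, SE 0.101, adjusted p = 0.00732. Mvk, Mvd and Fdps, which phosphorylate and decarboxylate mevalonate and join its products to farnesyl diphosphate, did not pass, with log2 0.11, 0.19 and 0.06.

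In the sterol branch 6 of 11 genes rose, and the branch median was 0.27. Msmo1, the methylsterol oxidase, had 3902, 1377, 2356 and 3805 without and 5962, 2579, 4004 and 5647 with PDGF, again in the order vehicle, SU6656, LY294002, UO126. All 4 pairs were higher with PDGF (log2 0.55, 0.86, 0.74 and 0.48), and the groups overlapped because the SU6656 pair lay low. The effect was 1.58-fold (log2 0.66, SE 0.0737, adjusted p = 0.000915).

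Hsd17b7, a ketosteroid reductase of the demethylation steps, had 560.3, 475, 572 and 598 without PDGF and 993, 668, 665 and 966 with it. Every PDGF array exceeded every array without PDGF, so the groups did not overlap. The effect was log2 0.54, SE 0.112, adjusted p = 0.0333. Sc5d, a sterol desaturase, had 933, 434, 649 and 846 without and 1414, 679, 876 and 1210.4 with PDGF. The PDGF arrays with SU6656 and with LY294002 did not exceed the vehicle array without PDGF. Its effect was log2 0.53, SE 0.0854, adjusted p = 0.00854.

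The other called sterol genes rose less. Fdft1, squalene synthase, had log2 0.40, SE 0.0898, adjusted p = 0.0442, Sqle, squalene epoxidase, 0.36, SE 0.071, adjusted p = 0.0264, and Cyp51, the lanosterol demethylase, 0.27, SE 0.0618, adjusted p = 0.0472. Pair by pair (no inhibitor, SU6656, LY294002, UO126) the log2 ratios were 0.45, 0.62, 0.42 and 0.14 for Fdft1. Those of Sqle were 0.53, 0.34, 0.41 and 0.14, and those of Cyp51 0.39, 0.37, 0.12 and 0.22. All were above 0, and the UO126 pair was the lowest for Fdft1 and Sqle and the LY294002 pair for Cyp51. For Cyp51 the other 2 probe sets had larger effects, 0.72 and 0.74, both called. The remaining sterol genes lay between −0.03 (Tm7sf2, a sterol reductase) and 0.15 (Lss, lanosterol synthase) and were not called.

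In the uptake and control branch 1 of 5 genes rose. Stard4, a carrier that moves cholesterol between membranes, had 853, 382, 698 and 784 without and 1677, 746, 1076 and 1571 with PDGF. The SU6656 array with PDGF was the only PDGF array below the vehicle array without it. The effect was 1.81-fold (log2 0.86, SE 0.0917, adjusted p = 0.000649). The regulators themselves did not pass at their brightest probe sets: Srebf2 0.11, Srebf1 −0.17, Scap −0.19 and Insig2 −0.02. The other probe set of Srebf2 was called at 0.37. Srebf1 was the least even of the members, with pair values of −0.08, 0.52, −0.41 and −0.70.

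The fatty acid branch had 2 rises among 9 genes and a median of 0.03. Aacs, which turns acetoacetate into acetoacetyl-CoA for lipid synthesis, read 1299, 584, 754 and 1162 without and 1925, 721, 1196 and 1898 with PDGF. The SU6656 arrays were the lowest in either state, and the PDGF array with SU6656 lay below every array without PDGF other than that with SU6656. The effect was log2 0.53, SE 0.0872, adjusted p = 0.00945. Fasn, fatty acid synthase, read 2571, 2084, 1939.8 and 2522 and then 3424, 2498, 2719 and 3235. The groups overlapped, since PDGF with SU6656 ended below the vehicle and UO126 arrays without PDGF. Its effect was log2 0.32, SE 0.065, adjusted p = 0.0275. Acaca, acetyl-CoA carboxylase, was higher in all 4 pairs without passing (log2 0.38, SE 0.141, adjusted p = 0.217). The desaturases Scd1, Scd2, Fads1 and Fads2, the elongase Elovl6 and the citrate lyase Acly ranged from −0.13 to 0.03.

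The 12 calls fell to 4 without the vehicle array and 4 without the PDGF array, to 7 without the LY294002, SU6656, PDGF with SU6656 or PDGF with LY294002 array, and to 2 without the variance trend. Leaving out either array of a pair takes the whole pair out of this estimate, so both arrays of a pair give nearly the same check. With no block for the pair, 0 members passed. Counted at the second brightest probe set, 9 of the 12 called genes passed and 3 did not, and Srebf2 was called there.

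**Figure D1:**
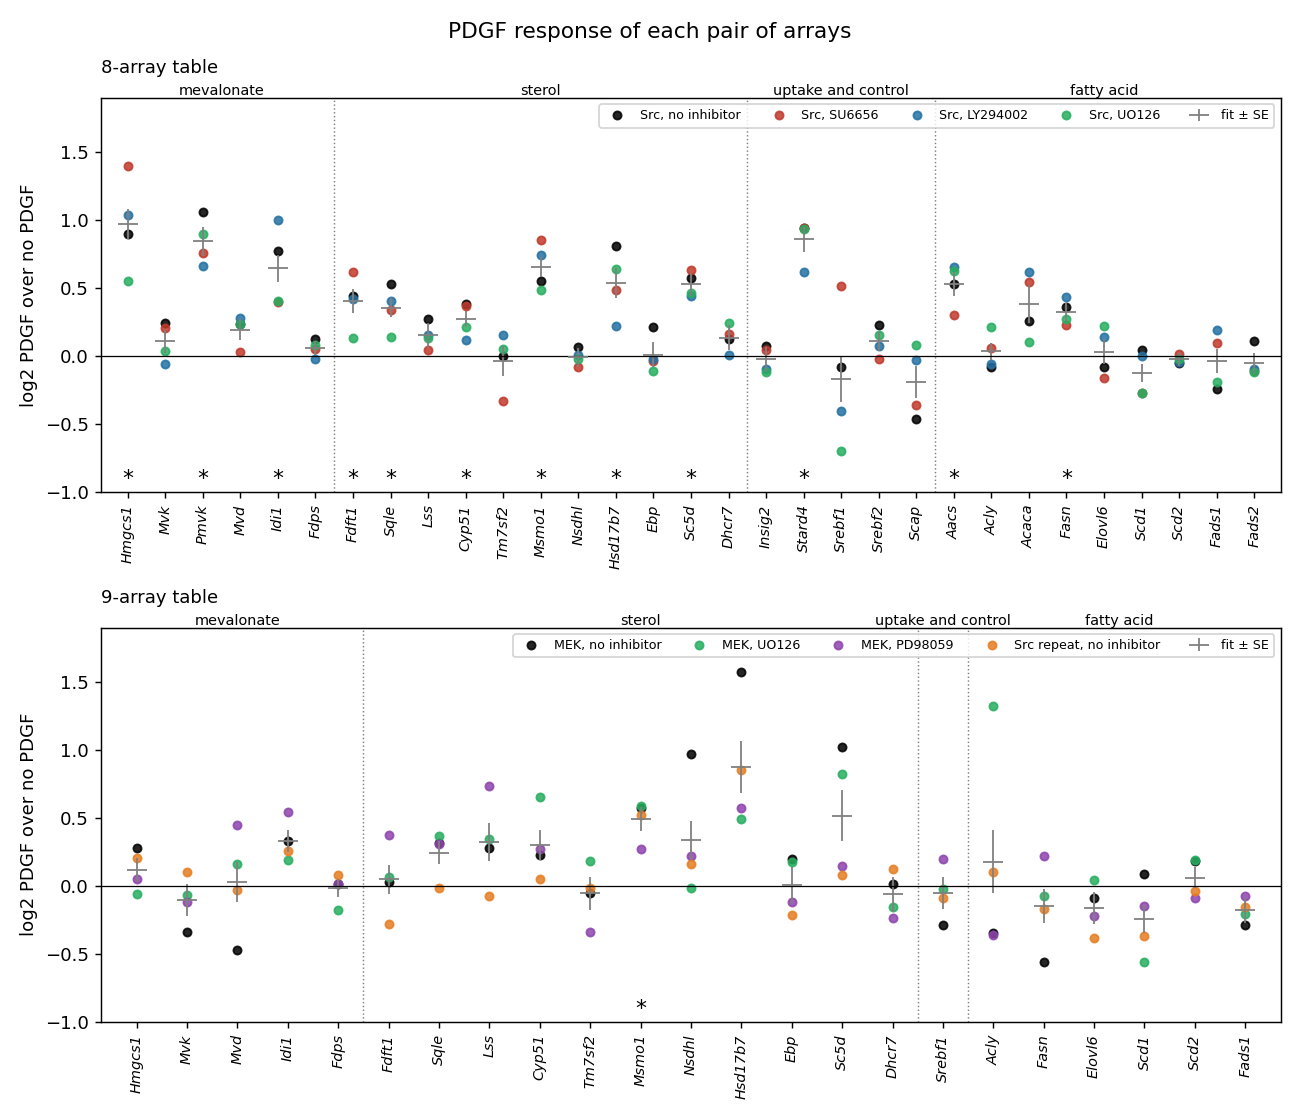
Log2 ratio of PDGF over no PDGF for each gene (x axis, by branch) in each pair of arrays (coloured points), with the fitted effect ± SE in grey and an asterisk where adjusted p was under 0.05, for the 8-array table (top) and the 9-array table (bottom). Hmgcs1, Pmvk and Stard4 lead in the upper panel, where 12 genes carry an asterisk; in the lower panel only Msmo1 does.

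Fewer members passed in the 9-array table, where 3 pairs came from the MEK experiment and 1 from the repeat. There 1 of 23 rose (1.6% of all 6364 genes rose, 0.251% fell), and the median was 0.05 against −0.04 over all genes. The sterol branch had a median of 0.30, and the mevalonate and fatty acid branches 0.03 and −0.16. Msmo1 read 3895 on the untreated array, 3988 with UO126, 3759.9 with PD98059 and 3291 on the vehicle array of the repeat, and 5651, 5907, 4648 and 4821 with PDGF added. All 4 PDGF arrays were above all 4 without. The effect was 1.4-fold (log2 0.49, SE 0.0887, adjusted p = 0.0204). It was not called without the untreated, PDGF, UO126 or PDGF with UO126 array of the MEK experiment or without either array of the repeat. Here too, both arrays of a pair give nearly the same check.

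Hsd17b7 had the largest value of the 23, log2 0.87, SE 0.193, adjusted p = 0.0569. Its intensity was 118 on the untreated array, 261 with UO126, 313 with PD98059 and 177 with vehicle, and 399, 379, 470.0 and 329 with PDGF. The untreated array was the lowest, the PDGF arrays were all above the arrays without PDGF, and without the untreated array the value was 0.64. Sc5d and Nsdhl, a sterol dehydrogenase, also had low readings on that array, 212 and 1876. Their PDGF values were 0.52 and 0.33, and 0.35 and 0.12 without it. Leaving out the PDGF array of the same pair gave 0.35 and 0.12 too, and 0.64 for Hsd17b7. The check therefore does not single out the untreated array. The part of the Gapdh signal ratio of that array in these values was not tested.

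For Hmgcs1 the 9-array table gave a small value. Its intensity was 4479, 5088, 4789 and 3954 without PDGF (untreated, UO126, PD98059, vehicle of the repeat) and 5269, 4859.8, 5111 and 4656 with it, so the groups overlapped. The effect was log2 0.12, SE 0.0883, adjusted p = 0.623, with a 95% interval of −0.08 to 0.31. Idi1 was higher in all 4 pairs (log2 0.33, SE 0.0811, adjusted p = 0.0934), and Cyp51 as well (0.30, SE 0.109, adjusted p = 0.278). Members higher in all 4 pairs were 5 of 23 (Cyp51, Hsd17b7, Idi1, Msmo1 and Sc5d), against 8.83% of all genes. Fads1 was lower in all 4 (log2 −0.18, SE 0.0912, adjusted p = 0.435), as were 13.5% of all genes. The designs use different probes and the tables were normalised separately, so the difference between tables was not tested.

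SU6656 lowered members of all 4 branches in the Src experiment. The fit set its 2 arrays, without and with PDGF, against the 2 vehicle-treated arrays, and 9 of 31 members fell and 0 rose, where 0.0976% of 9222 genes fell and 0% rose. These 9 were also all the genes called. Of 17 probe sets called, 15 were of members, and these 15 had the lowest p-values of the whole table; the annotation used here names no single gene for the other 2. The median over the members was −0.38, against 0.02 over all genes. By branch it was −0.75 for mevalonate, −0.72 for sterol, −0.06 for uptake and control and −0.33 for fatty acid genes. Both SU6656 arrays lay below both vehicle-treated arrays for 24 of 31 members, a pattern of 14.4% of all genes, and above both for 0, where 18.2% of all genes were.

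Hmgcs1 fell most, 2.98-fold (log2 −1.57, SE 0.154, adjusted p = 0.00545). The readings given above put the SU6656 array at 3175 against 11425 with vehicle, and at 8715 against 20098 under PDGF. Its 3 further probe sets had log2 −1.87, −1.76 and −1.83, all called. Such agreement did not hold for every called gene. Counted at the second brightest probe set, 6 of the 9 genes called with SU6656 passed and 3 did not. A gene with a single probe set keeps it in that count. Idi1, the other call of the branch, had log2 −1.14, SE 0.143, adjusted p = 0.0192. Pmvk at −0.83 and Mvd at −0.66 did not pass (adjusted p = 0.154 and 0.112), nor did Mvk and Fdps at −0.28 and −0.30.

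In the sterol branch 5 of 11 genes fell. Fdft1 read 1596, 551, 1122 and 1872 without PDGF (vehicle, SU6656, LY294002, UO126) and 2232, 857, 1515 and 2116 with it. Its SU6656 arrays were below the other 6, and the effect was 2.68-fold down (log2 −1.42, SE 0.127, adjusted p = 0.00302). Msmo1 fell 2.55-fold (log2 −1.35, SE 0.104, adjusted p = 0.00204), with SU6656 and PDGF together leaving it above the LY294002 array alone.

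Cyp51 had 5989.9, 2947, 5746 and 6124 without and 7905, 3949.8, 6375 and 7525 with PDGF. Both SU6656 arrays were below all 6 others. The effect was log2 −1.03, SE 0.0874, adjusted p = 0.00302. Sqle had 4222, 2349.8, 3036 and 5049 and 6235, 3055, 4125 and 5751, where the PDGF with SU6656 array was just above the LY294002 array. Its effect was log2 −0.94, SE 0.1, adjusted p = 0.00824, and that of Sc5d −1.03, SE 0.121, adjusted p = 0.0127. Lss, Nsdhl, Dhcr7 and Hsd17b7 had values of −0.72, −0.55, −0.52 and −0.38 without passing, and Ebp and Tm7sf2 0.02 and 0.07. Dhcr7 makes the last reductive step to cholesterol, and Ebp shifts a double bond of the sterol ring.

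Stard4 was the control branch's call, 2.16-fold down (log2 −1.11, SE 0.13, adjusted p = 0.0127). The SREBP genes and their partners were not called: Srebf2 −0.22, Srebf1 0.15, Scap 0.25 and Insig2 −0.06, with 95% intervals of −0.45 to 0.01, −0.39 to 0.69, −0.12 to 0.63 and −0.36 to 0.23. Aacs was that of the fatty acid branch, 2.34-fold down (log2 −1.22, SE 0.123, adjusted p = 0.00612). The other 8 fatty acid genes were all on the lower side, from −0.49 for Acaca to −0.13 for Scd1, without passing.

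**Figure D2:**
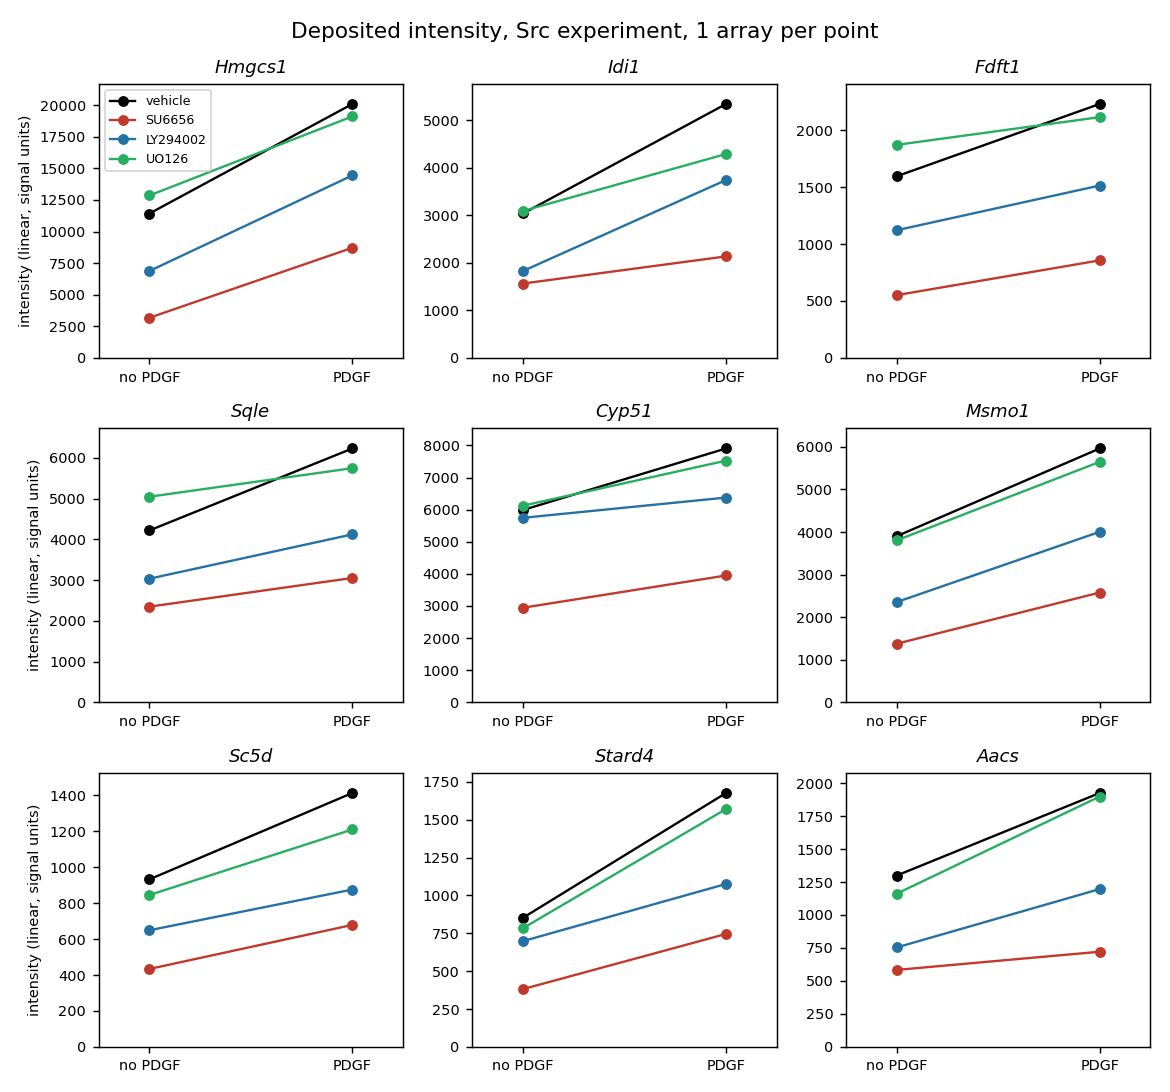
Deposited intensity (y axis, linear signal units) of the 9 genes that fell with SU6656, without and with PDGF (x axis), for vehicle, SU6656, LY294002 and UO126 in the Src experiment, 1 array per point. The red SU6656 line is the lowest in every panel and rises with PDGF in every panel; for Hmgcs1 it runs from 3175 to 8715.

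The lower level with SU6656 was present both without and with PDGF. Without PDGF the members' median ratio was −0.48 and 12 of 31 were down past 1.5-fold, against 4.94% of all genes. With PDGF the median was −0.44 and 13 were down past 1.5-fold, against 4.89%. The Hmgcs1 ratios were −1.83 without and −1.32 with PDGF, those of Idi1 −0.95 and −1.32, and those of Stard4 −1.11 and −1.11. The PDGF ratio of these genes within the SU6656 pair stayed above 0: 1.40 for Hmgcs1, 0.94 for Stard4 and 0.31, the smallest of the 9, for Aacs. Whether the PDGF response differed with SU6656 was not tested, since each cell of that comparison is 1 array.

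The number of calls depended on single arrays. The members' median was −0.41 without the vehicle array, −0.45 without PDGF, −0.40 without PDGF with SU6656 and −0.41 without SU6656. With all arrays it was −0.38. Leaving out an array also lowers the residual degrees of freedom, so a lost call need not mean a smaller effect. Without the vehicle array 0 members passed in limma, without the PDGF array 1, without PDGF with SU6656 4 and without SU6656 5, and without the variance trend 0. An unadjusted p under 0.05 was found for 22 of 31 members, all lower, and for 718 of all 9222 genes. The 2 adipocyte markers that passed the filter were also on the lower side with SU6656, Retn at log2 −0.83, SE 0.298, adjusted p = 0.542 and Lpl at log2 −0.12, SE 0.127, adjusted p = 0.877, neither called. The summed intensity of all 6 adipocyte markers on the array was 1436 and 1348 with SU6656, and 1759 with vehicle and 1545 with PDGF, and its part in the result was not tested; Adipoq, Fabp4, Cidec and Pparg were below the filter.

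The repeat of the Src experiment measured SU6656 only under PDGF, 1 array over 1 array, on the other array design. Of 23 members, 3 were down past 1.5-fold, where 7.83% of all genes were, and 0 were up, where 7.57% were. Hmgcs1 read 3954 with vehicle, 4656 with PDGF and 2119 with PDGF and SU6656. This last was the lowest of all 9 arrays of that table, and the SU6656 ratio was log2 −1.13. Msmo1 read 3291, 4821 and 2789.7 (ratio −0.78) and Cyp51 4109, 4429.6 and 2937 (ratio −0.59).

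The other genes called in the Src experiment and measured here were lower by less: Idi1 −0.32, Sqle −0.32, Sc5d −0.29 and Fdft1 −0.11. Stard4 and Aacs had no probe set there. In the sterol branch 10 of 11 genes were lower, with a median of −0.29 against 0.01 over all genes, 48.7% of which were lower. The mevalonate median was −0.26. The fatty acid branch differed from the Src experiment, with 5 of 6 genes higher and a median of 0.10. In the Src experiment 9 of 9 had been lower under PDGF with a median of −0.32. Those 9 include Aacs, Acaca and Fads2, which had no probe set in the repeat, so the medians cover different sets of genes. The difference between the experiments has no replicate and was not tested.

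**Figure D3:**
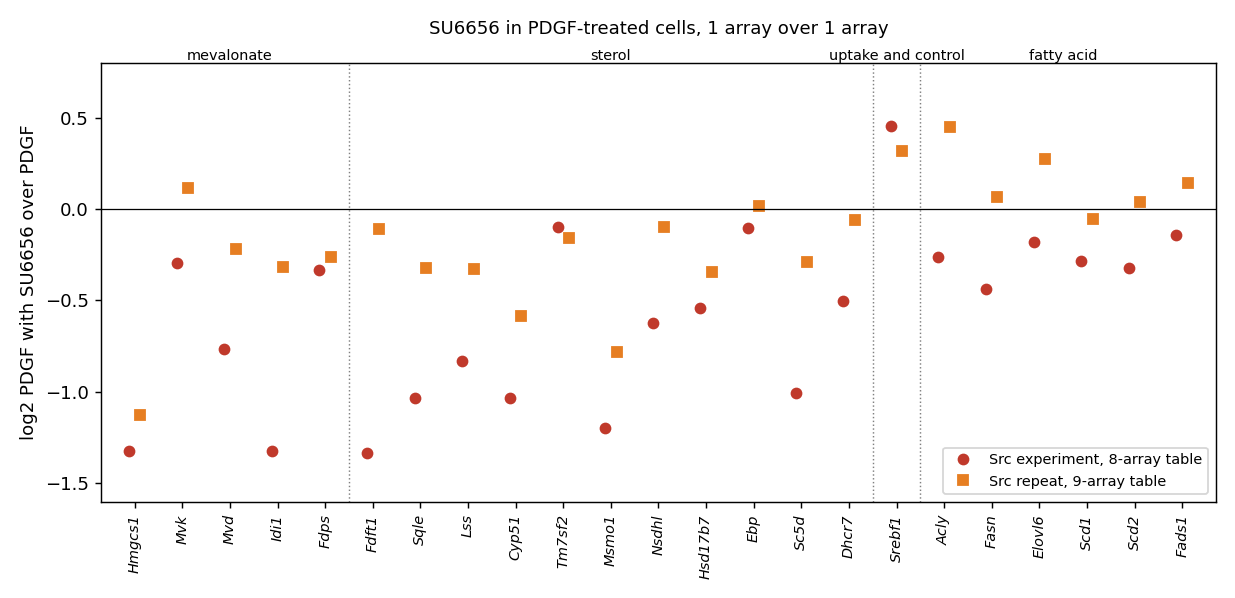
Log2 ratio of PDGF with SU6656 over PDGF alone for the 23 genes measured in both tables (x axis, by branch), in the Src experiment (circles) and its repeat (squares), 1 array over 1 array. Hmgcs1, Msmo1 and Cyp51 are low in both; Fdft1 is −1.34 in the Src experiment and −0.11 in the repeat.

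LY294002 lowered 3 of 31 members in the Src experiment and raised 0, where 0.314% of all genes fell and 0.173% rose. The vehicle-treated arrays are the same as for SU6656, so the results of the 2 inhibitors are not independent. The members' median was −0.27 against 0.01 over all genes, with −0.49 for mevalonate, −0.28 for sterol, 0.09 for uptake and control and −0.15 for fatty acid genes. Both LY294002 arrays were below both vehicle-treated arrays for 15 members, against 20.5% of all genes, and above both for 3 (Insig2, Scap and Tm7sf2), against 21.4%.

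Aacs fell 1.64-fold (log2 −0.72, SE 0.123, adjusted p = 0.045), Msmo1 1.59-fold (−0.67, SE 0.104, adjusted p = 0.0293) and Scd2, a stearoyl-CoA desaturase, 1.33-fold (−0.41, SE 0.0643, adjusted p = 0.0298). For Scd2 the arrays read 12063, 9533, 9564 and 11890.3 without PDGF (vehicle, SU6656, LY294002, UO126) and 11624, 9817, 9122 and 11704 with it. Both the LY294002 and the SU6656 arrays were below all vehicle and UO126 arrays. Of the probe sets that passed the filter, 1 of 2 was called for Aacs and 1 of 3 for Scd2, and Msmo1 had only 1. For Hmgcs1, 1 of 4 probe sets was called (−1.01), and its brightest had −0.66, SE 0.154, adjusted p = 0.107. Sqle (−0.54, adjusted p = 0.0581) and Sc5d (−0.59, adjusted p = 0.0775) came next. With LY294002, Retn had log2 −0.59, SE 0.298, adjusted p = 0.45 and Lpl log2 −0.06, SE 0.127, adjusted p = 0.899, and the summed adipocyte intensity was 1339 and 1614; its part in the result was not tested. Scap, the escort of SREBP, was on the higher side (log2 0.47, SE 0.167, adjusted p = 0.267).

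These LY294002 calls were 0 without the vehicle, PDGF, LY294002 or PDGF with LY294002 array, and up to 5 without the UO126 array. They were 1 when arrays were scaled to a common median and 0 with no filter or no variance trend.

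Set directly against each other, SU6656 and LY294002 differed in 4 members, all higher with LY294002, where 0.336% of all genes were higher and 0.336% lower. The differences were 0.82, SE 0.0874, adjusted p = 0.00761 for Cyp51, 0.89, SE 0.127, adjusted p = 0.0176 for Fdft1, 0.92, SE 0.154, adjusted p = 0.0349 for Hmgcs1 and 0.68, SE 0.104, adjusted p = 0.0226 for Msmo1, as log2 of LY294002 over SU6656. All 11 sterol genes were on that side, with a branch median of 0.32. Without the LY294002 array or without the SU6656 array 0 of these passed, without PDGF with LY294002 1, and without PDGF with SU6656 2.

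**Figure D4:**
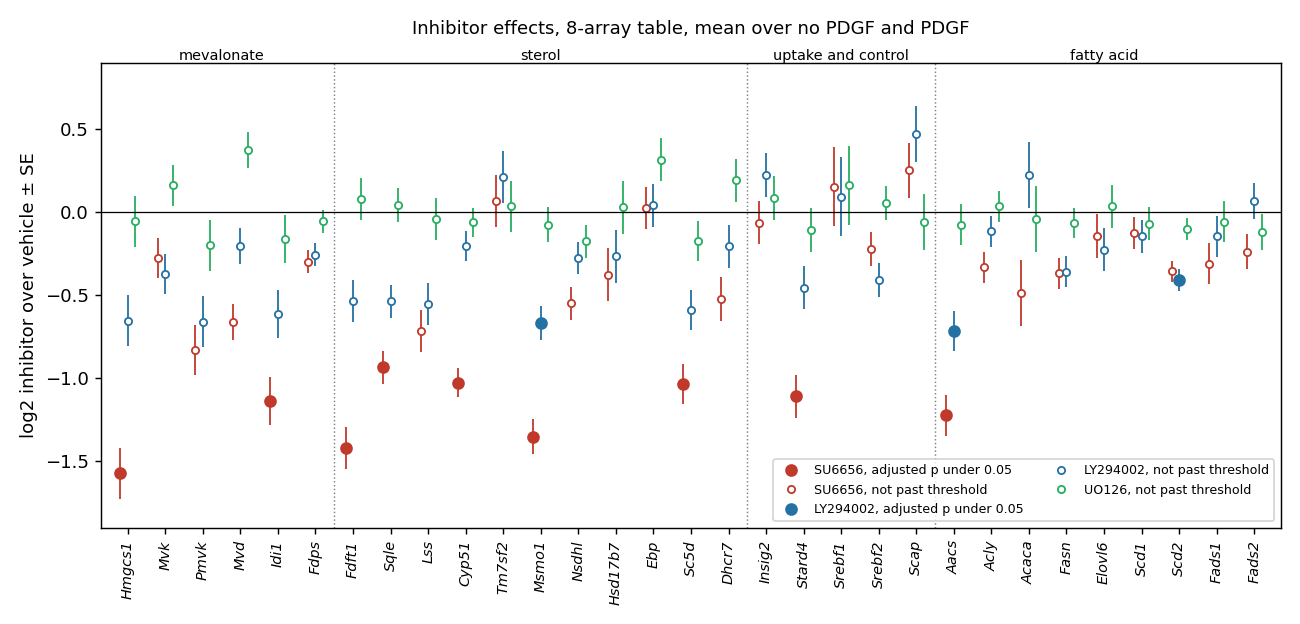
Fitted log2 effect of SU6656 (red), LY294002 (blue) and UO126 (green) over vehicle ± SE, averaged over cells without and with PDGF, for the 31 genes of the 8-array table by branch; filled points have an adjusted p under 0.05. SU6656 reaches −1.57 at Hmgcs1, and the UO126 points run from −0.20 to 0.38.

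UO126 moved none of the members past the threshold in the Src experiment: limma called 0 of 31 (0.0542% of all genes were called either way), and 2 had an unadjusted p under 0.05, as did 853 of all 9222 genes. The median was −0.05, and log2 ratios ran from −0.20 for Pmvk to 0.38 for Mvd, the decarboxylase of mevalonate diphosphate. In the mevalonate branch the 3 largest values by size were Mvd (0.38, SE 0.109, adjusted p = 0.371), Pmvk (−0.20, SE 0.153, adjusted p = 0.749) and Idi1 (−0.16, SE 0.143, adjusted p = 0.786). In the sterol branch they were Ebp (0.32, SE 0.128, adjusted p = 0.497), Dhcr7 (0.19, SE 0.131, adjusted p = 0.718) and Nsdhl (−0.18, SE 0.0988, adjusted p = 0.65). Among control genes they were Srebf1 (0.16, SE 0.24, adjusted p = 0.894), Stard4 (−0.11, SE 0.13, adjusted p = 0.863) and Insig2 (0.09, SE 0.132, adjusted p = 0.897), and among fatty acid genes Fads2 (−0.12, SE 0.108, adjusted p = 0.791), Scd2 (−0.10, SE 0.0643, adjusted p = 0.684) and Aacs (−0.08, SE 0.123, adjusted p = 0.902). Both UO126 arrays lay below both vehicle-treated arrays for 3 members, against 15.2% of all genes, and above both for 5, against 18.7%. For Hmgcs1 the 95% interval of the UO126 effect was −0.40 to 0.29, and for Msmo1 it was −0.31 to 0.16.

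The difference between SU6656 and UO126, which uses no vehicle-treated array in its estimate, was called for 10 members, all lower with SU6656, where 0.195% of all genes were lower and 0.0434% higher. These were the 9 named above and Mvd. In this comparison Retn had log2 −0.82, SE 0.298, adjusted p = 0.424 and Lpl log2 −0.54, SE 0.127, adjusted p = 0.213, and the summed adipocyte intensity was 2103 and 2133 with UO126; its part in the result was not tested. Mvd read 1344, 899, 1160.3 and 1734 without PDGF (vehicle, SU6656, LY294002, UO126) and 1608, 931, 1415 and 2109 with it. Its UO126 arrays were the highest and its SU6656 arrays the lowest in either state, and the difference was log2 −1.04, SE 0.109, adjusted p = 0.00575. The largest was that of Hmgcs1 (−1.52, SE 0.154, adjusted p = 0.00561) and the smallest that of Sc5d (−0.86, SE 0.121, adjusted p = 0.0268). The count was 7 without the vehicle, PDGF or UO126 array, 4 without PDGF with SU6656, 6 without SU6656 or without PDGF with UO126, and 0 without the variance trend.

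LY294002 against UO126 gave 4 members, all lower with LY294002 (0.651% of all genes were lower and 0.759% higher): Aacs (−0.64, SE 0.123, adjusted p = 0.0434), Msmo1 (−0.59, SE 0.104, adjusted p = 0.0311), Sqle (−0.58, SE 0.1, adjusted p = 0.0292) and Mvd (−0.58, SE 0.109, adjusted p = 0.0412). All 4 were lost without the LY294002, the PDGF with LY294002 or the UO126 array, and the count was 1 without the vehicle or the PDGF array, 2 without PDGF with UO126, and 5 without either SU6656 array.

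In the MEK experiment UO126 and PD98059, at their different doses, were fitted together as 2 replicates of MEK inhibition, and no member passed the threshold in that fit. Neither was fitted alone. The fit included the arrays of the repeat, with a term for the experiment. Its level without an inhibitor therefore also drew on the vehicle and PDGF arrays of the repeat. With PDGF limma called 0 of 23 members and 0 of 6364 genes (0%), and 1 member and 450 genes had an unadjusted p under 0.05. Without PDGF 0 of 23 members were called, where 0.0157% of genes were, and 3 members and 415 genes had an unadjusted p under 0.05. The members' medians were 0.17 with and 0.03 without PDGF. The change of the PDGF effect under MEK inhibition, fitted as an interaction, was called for 0 of 23 members and 0 of 6364 genes (0%), and 0 members and 299 genes had an unadjusted p under 0.05.

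With PDGF the 3 largest mevalonate values were Mvd (0.58, SE 0.266, adjusted p = 0.702), Idi1 (0.17, SE 0.139, adjusted p = 0.854) and Fdps (0.10, SE 0.127, adjusted p = 0.914). Under PDGF, Mvd read 989.8 without an inhibitor, 1307 when UO126 was present and 2101 when PD98059 was, 1 array each, and was lowest without an inhibitor. The largest sterol values were Cyp51 (0.42, SE 0.162, adjusted p = 0.611), Hsd17b7 (0.28, SE 0.264, adjusted p = 0.878) and Lss (0.28, SE 0.199, adjusted p = 0.818), and the largest fatty acid values Acly (0.27, SE 0.367, adjusted p = 0.918), Elovl6 (−0.26, SE 0.193, adjusted p = 0.839) and Fasn (0.22, SE 0.173, adjusted p = 0.854). Acly, ATP citrate lyase, read 5126, 9676 and 4379 on those 3 arrays, high with UO126 only. Srebf1, the 1 control gene measured, had 0.00, SE 0.179, adjusted p = 1.

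Without PDGF the largest sterol values were Hsd17b7 (0.96, SE 0.264, adjusted p = 0.417), Nsdhl (0.59, SE 0.212, adjusted p = 0.58) and Dhcr7 (0.53, SE 0.202, adjusted p = 0.607). All 3 are read against a fitted level that rests mainly, but not only, on the untreated array. On that array the intensities of Hsd17b7 (118 against 261 with UO126 and 313 with PD98059) and Nsdhl (1876 against 3588 and 3023) were low. Without that array the members' median was −0.02. The largest mevalonate values were Fdps (0.23, SE 0.127, adjusted p = 0.773), Hmgcs1 (0.17, SE 0.138, adjusted p = 0.87) and Idi1 (0.10, SE 0.139, adjusted p = 0.95), and the largest fatty acid values Elovl6 (−0.41, SE 0.193, adjusted p = 0.712), Acly (−0.33, SE 0.367, adjusted p = 0.913) and Fasn (−0.22, SE 0.173, adjusted p = 0.859). Srebf1 had −0.27, SE 0.179, adjusted p = 0.81.

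UO126 at 10 µM and PD98059 at 7.5 µM were compared within the MEK experiment, at doses that differ. Of 23 members limma called 0, as of all 6364 genes (0%), and 1 member and 325 genes had an unadjusted p under 0.05. The median was −0.01. The largest values, as log2 of UO126 over PD98059, were Mvd (−0.53, SE 0.177, adjusted p = 0.898), Mvk (0.29, SE 0.18, adjusted p = 0.978) and Fdps (−0.17, SE 0.104, adjusted p = 0.978) in the mevalonate branch, Sc5d (0.56, SE 0.276, adjusted p = 0.965), Hsd17b7 (−0.23, SE 0.241, adjusted p = 0.99) and Msmo1 (0.21, SE 0.136, adjusted p = 0.978) in the sterol branch and Acly (0.43, SE 0.305, adjusted p = 0.978), Scd1 (−0.18, SE 0.15, adjusted p = 0.978) and Elovl6 (−0.15, SE 0.174, adjusted p = 0.992) in the fatty acid branch, with Srebf1 at −0.01, SE 0.167, adjusted p = 0.997. The 95% interval for Hmgcs1 was −0.33 to 0.24.

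**Figure D5:**
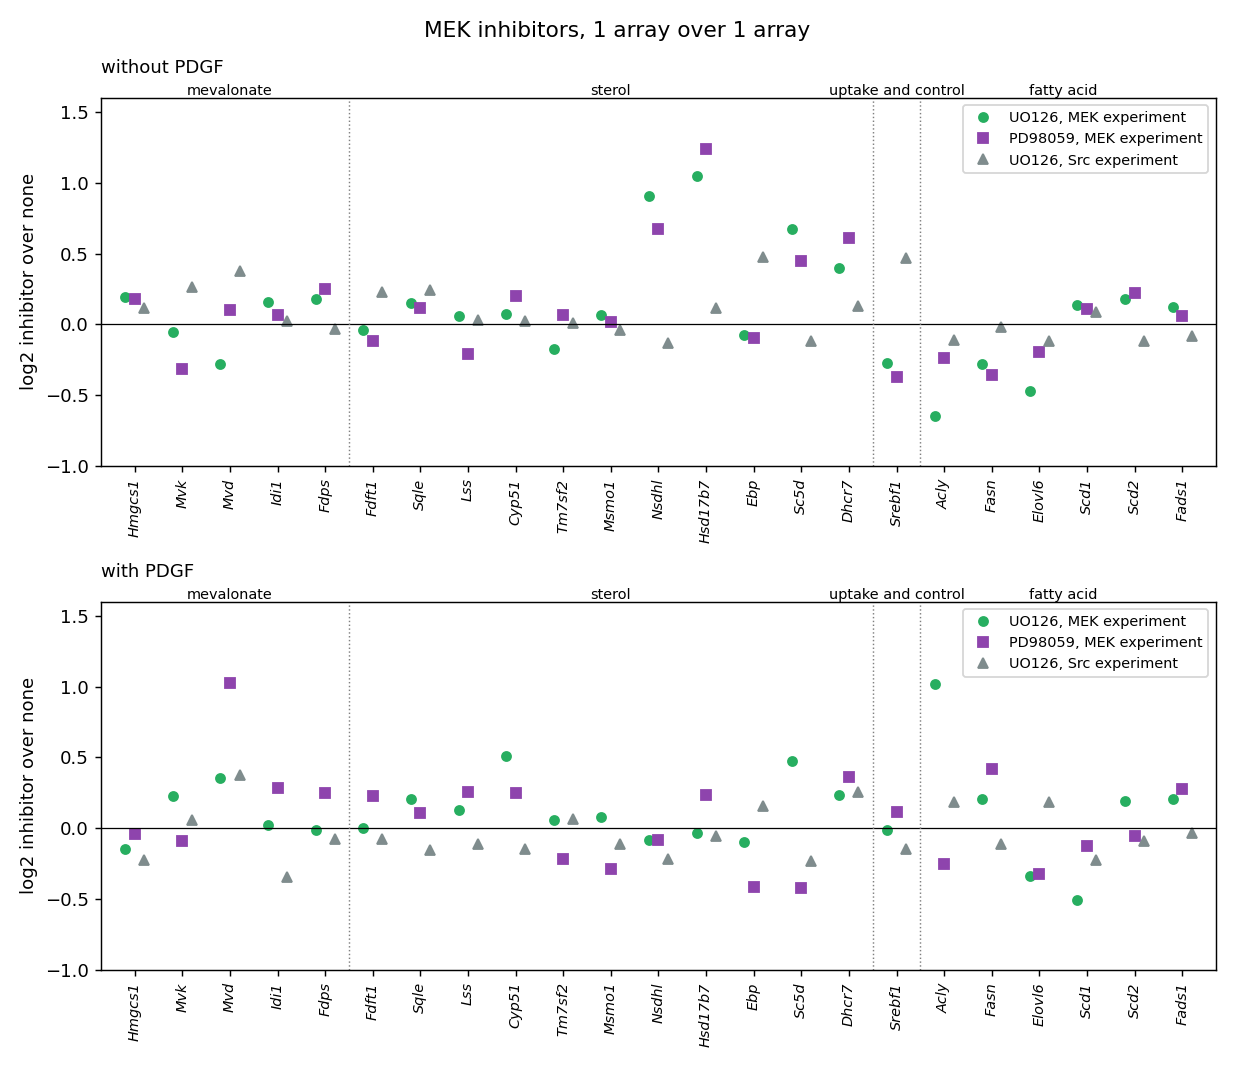
Log2 ratio of each MEK inhibitor over no inhibitor, without PDGF (top) and with PDGF (bottom), 1 array over 1 array, for the 23 genes of the 9-array table by branch; UO126 of the Src experiment is shown for the same genes. Hsd17b7, Nsdhl and Sc5d are high without PDGF in the MEK experiment, where the divisor is the untreated array, and lie at 0.11, −0.13 and −0.12 in the Src experiment.

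The counts for neighbouring lipid pathways are read against all genes, of which 2.47% rose and 0.824% fell with PDGF, 0.0976% were called with SU6656, 0.488% with LY294002 and 0.0542% with UO126, so that 0 calls in a list of this size is near the background. Of 16 further lipid synthesis genes measured in the 8-array table (acyl-CoA ligases, elongases, glycerolipid enzymes and others) 0 were called with PDGF, SU6656, LY294002 or UO126, and their medians were −0.04, −0.08, 0.00 and 0.02; 4, 2, 1 and 1 had an unadjusted p under 0.05 in limma. Of 12 genes of sterol efflux, storage and trafficking 0 were called in these 4 comparisons, with 2 at an unadjusted p under 0.05 in each, and the medians were −0.05, 0.22, 0.03 and 0.20. In a list of 12 genes of fatty acid oxidation and its regulation, all 12 had values below 0 with PDGF, where 5560 of all 9222 genes did, with a median of −0.11. Of these 1 fell, and 4 had an unadjusted p under 0.05, as did 1547 of all genes. The one that fell was Angptl4, which is no oxidation enzyme but a secreted inhibitor of lipoprotein lipase (log2 −0.56, SE 0.116, adjusted p = 0.0309). With SU6656, LY294002 and UO126, 0 of the 12 were called, and 1, 4 and 2 had an unadjusted p under 0.05 in limma. Between inhibitors, Cpt1a, the mitochondrial carnitine acyltransferase, was higher with LY294002 than with SU6656 (log2 0.65, SE 0.113, adjusted p = 0.0428), and Angptl4 lower with SU6656 than with UO126 (log2 −1.17, SE 0.164, adjusted p = 0.0268).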

How the data were processed

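The values are the intensities the authors deposited, linear and scaled by them, with 1 array per condition. The labels name neither a genome build nor software for them. Probe sets were named through GEO's platform annotation. Within each table the arrays were quantile normalised and log2(value + offset) was taken, with the offset at the 20th percentile (36.2 and 21.1 signal units). A filter on the mean value removed the bottom 30% of probe sets and left 15838 and 8695. Effects come from limma 3.58.1 (R 4.3.3, variance trend, 3 residual degrees of freedom, 2 for UO126 against PD98059) and adjusted with Benjamini-Hochberg over all kept probe sets at 0.05. The scripts were tested on simulated data. The PDGF fit has the pair (same experiment and inhibitor) as a block, which follows from the design, and the correlation of deviations within pairs was 0.092 to 0.252 and 0.147 to 0.57. Ratios of 1 array over 1 array were described with a 1.5-fold limit. Members, lists and tests were chosen with earlier results of these data known. Members past the threshold in any fit, or else the 3 largest per branch, were named with full values. Alternatives covered scaling, offset, filter, variance trend, probe set choice, pair block and leaving out each array.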

Additional observations from a re-analysis of the deposited data

Results flagged for a closer look

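In 4 of 64 PDGF responses checked, 1 of the 4 pairs of arrays lay far from the other 3, a gap that chance gives in about 1 in 20 such groups. For Mvd in the Src experiment the SU6656 pair had a log2 ratio of 0.0276, and the others lay between 0.23 and 0.28. For Stard4 the LY294002 pair had 0.62, and the others rounded to 0.94. For Fads2, a fatty acid desaturase, the pair without inhibitor had 0.11 and the others −0.11 to −0.10. For Sqle in the 9-array table the pair of the repeat had −0.0148, and the 3 pairs of the MEK experiment 0.31 to 0.37.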

How the results depend on the processing

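Of the alternatives to the processing, none turned the direction of a called member, and 418 of the values of single members kept their side of the threshold while 240 lost it. Without the variance trend the PDGF count of the 8-array table was 2, and the counts for SU6656, LY294002, LY294002 against SU6656, LY294002 against UO126, SU6656 against UO126 and PDGF in the 9-array table were 0. With no replicate block, 0 members passed for PDGF in either table. Scaling to a common median gave 1 member for LY294002, 2 for LY294002 against UO126 and 2 for PDGF in the 9-array table. It moved the PDGF median of the 8-array table to 0.25, and the medians for MEK inhibition with and without PDGF and for UO126 against PD98059 to 0.257, 0.0361 and 0.0709. The medians over all genes moved too. In the same order they went from −0.0454, 0.0188, −0.0041 and −0.0074 to 0.0262, 0.0834, 0.0041 and 0.0318. With no filter the counts were 0 for LY294002, 2 for LY294002 against SU6656 and 0 for LY294002 against UO126, and the median for MEK inhibition without PDGF was 0.0394. At the second brightest probe set the counts were 1, 2 and 2 for those 3 comparisons. The SU6656 count was 6 there, where it was 9 at the brightest. For PDGF in the 8-array table it was 10, Srebf2 among them, where it was 12 at the brightest. The medians there were 0.32 for LY294002 against SU6656, −0.25 for LY294002 against UO126, −0.48 for SU6656, and 0.207 and −0.0463 for MEK inhibition with and without PDGF. Without probe sets that can match several transcripts, 2 members passed for PDGF in the 9-array table. The cause of these changes was not tested.

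Leaving out each array in turn gave 4 to 10 members for PDGF in the 8-array table (median 0.11 to 0.19) and 0 to 1 in the 9-array table (0.02 to 0.09). SU6656 gave 0 to 9 (−0.45 to −0.37), LY294002 0 to 5 (−0.30 to −0.26) and UO126 0 to 0 (−0.10 to −0.01). LY294002 against SU6656 gave 0 to 4 (0.22 to 0.30), LY294002 against UO126 0 to 5 (−0.32 to −0.29) and SU6656 against UO126 4 to 9 (−0.46 to −0.37). MEK inhibition gave 0 to 0 with PDGF (0.10 to 0.19) and without it (−0.0192 to 0.0908), and UO126 against PD98059 0 to 0 (−0.0742 to 0.0285). Leaving out an array also lowers the residual degrees of freedom, so fewer calls need not mean smaller effects. The number of arrays limits the precision, since most fits rest on 1 array per condition.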
